A study of Mus musculus with 4 samples.

Results

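Tiles that were heavily methylated in the wild type both before and after neuronal differentiation are described here. The mouse genome (mm10) was divided into tiles of 1000 bases, and a tile was eligible when at least 5 CpG sites in it were listed in the tables of all 4 libraries. The level of a tile was the unweighted mean of the methylation percentages of those sites. A tile was taken when its level reached 80% in R1 ESCs and 90% in R1 neurons. This held for 2547 of 80233 eligible tiles (3.17%), which carried 17368 shared sites. The R1 values therefore chose the tiles and are given as a description, whereas the 2 Tet/Tet libraries took no part in the choice.

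The libraries were made by reduced representation bisulfite sequencing (RRBS), in which DNA cut with MspI at CCGG is treated with bisulfite so that unmethylated cytosines are read as thymines. R1 is a wild-type mouse embryonic stem cell (ESC) line. The Dnmt1 Tet/Tet line was derived from R1 by placing tet-off constructs at the Dnmt1 promoter, and it is described as overexpressing DNMT1. It is a single line and was kept in puromycin and an aminoglycoside, named neomycin in the labels and G418 in the study's methods. Both lines were grown as ESCs with LIF, and both were turned into neurons by 2 days as embryoid bodies and then 10 to 15 days in neural medium. Each of the 4 conditions (R1 ESCs, Tet/Tet ESCs, R1 neurons, Tet/Tet neurons) was represented by 1 library, so no value has a replicate error and no test between conditions was possible. The tables hold percentages without read totals, and the depth behind each site is unknown. The ESC and neuron libraries came from separate sequencing projects, and cell type and project cannot be told apart.

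Methylation of CpG sites is copied to the new strand after replication by DNMT1, the maintenance methyltransferase, while DNMT3A and DNMT3B place methylation on sites that lacked it. In mouse ESCs most of the genome outside CpG islands carries intermediate to high methylation, and it becomes more completely methylated as cells leave the pluripotent state. Sequences known to stay methylated through these changes include transposed elements such as endogenous retroviruses, and TGCCGC is the core of the motif bound by ZFP57, a zinc finger protein that protects methylation at imprinted regions and at some such elements.

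To show what such tiles look like, the sequences of 4 of them are printed, from the plus strand of the GRCm38.p6 (mm10) assembly, read from 5′ to 3′. Capitals mark CpG sites listed in all 4 libraries. The first is the tile with the highest level in Tet/Tet neurons, the second the tile nearest to the medians of both Tet/Tet libraries, the third the tile with the lowest level in Tet/Tet neurons and the fourth the tile furthest below R1 in Tet/Tet ESCs, each among tiles with at least 10 shared sites. None of these windows touched an exon of the GENCODE M21 annotation.
Highest in Tet/Tet neurons, chr15:15788861-15788993: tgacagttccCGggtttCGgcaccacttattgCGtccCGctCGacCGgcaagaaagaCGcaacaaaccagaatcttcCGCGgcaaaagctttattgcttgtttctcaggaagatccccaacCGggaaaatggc
Nearest to the medians, chr4:80410250-80410518: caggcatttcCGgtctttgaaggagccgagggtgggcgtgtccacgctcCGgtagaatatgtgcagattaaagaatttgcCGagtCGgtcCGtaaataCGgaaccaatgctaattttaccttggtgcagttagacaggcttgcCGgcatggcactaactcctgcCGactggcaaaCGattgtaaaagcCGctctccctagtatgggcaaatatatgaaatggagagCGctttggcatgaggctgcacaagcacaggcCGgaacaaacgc
Lowest in Tet/Tet neurons, chr19:4957216-4957382: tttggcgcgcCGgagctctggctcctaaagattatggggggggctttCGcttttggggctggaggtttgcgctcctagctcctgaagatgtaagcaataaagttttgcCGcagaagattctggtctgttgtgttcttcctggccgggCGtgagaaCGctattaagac
Furthest below R1 in Tet/Tet ESCs, chr11:79863543-79863836: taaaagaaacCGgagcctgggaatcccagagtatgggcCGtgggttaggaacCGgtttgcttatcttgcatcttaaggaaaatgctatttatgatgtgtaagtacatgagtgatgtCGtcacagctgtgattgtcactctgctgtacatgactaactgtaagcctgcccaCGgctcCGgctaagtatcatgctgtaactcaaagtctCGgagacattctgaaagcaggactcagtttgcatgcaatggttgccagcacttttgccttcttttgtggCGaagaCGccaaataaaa
The first and second windows lay entirely in soft-masked sequence, the lower-case part of the assembly that marks interspersed and simple repeats. The third did so over 164 of its 167 bases, and the fourth over 11 of 294.

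In ESCs 2311939 (R1) and 2936767 (Tet/Tet) CpG sites were listed, and in neurons 5298360 (R1) and 3979487 (Tet/Tet), of which 1545651 were shared by all 4 libraries. For Tet/Tet neurons, chromosomes 8 and 9, chromosome 7 beyond 55762981 and chromosome 10 before 128096803 were not analysed here, and the tiles therefore come from the rest of the genome. Of 17 marker genes set for ESCs, neurons and glia, 8 had no shared site within 1 kb of the start. At Pou5f1, which encodes a pluripotency factor, the level near the start was 1.90% (R1) and 8.91% (Tet/Tet) in ESCs and 36.1% (R1) and 5.44% (Tet/Tet) in neurons. The neuronal markers with shared sites (Map2, Syn1 and Snap25) and the glial ones (Olig1, Olig2 and Mbp) stood below 20% in every library, so these sites did not mark neurons or glia.

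In Tet/Tet ESCs the tiles stayed heavily methylated, and in Tet/Tet neurons they stood far lower. The R1 levels that chose them averaged 86.0% ± 5.38 (SD over 2547 tiles) in R1 ESCs and 95.7% ± 2.59 in R1 neurons. Tet/Tet ESCs averaged 79.6% ± 13.1 with a median of 82.7%, and Tet/Tet neurons averaged 24.3% ± 14.0 with a median of 22.2%. All other eligible tiles averaged 31.1% (R1) and 33.2% (Tet/Tet) in ESCs and 66.7% (R1) and 13.5% (Tet/Tet) in neurons. These SDs describe variation between tiles and not between cultures. A level between 0 and 100% does not tell whether few cells were fully methylated or many cells partly so.

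**Figure D1:**
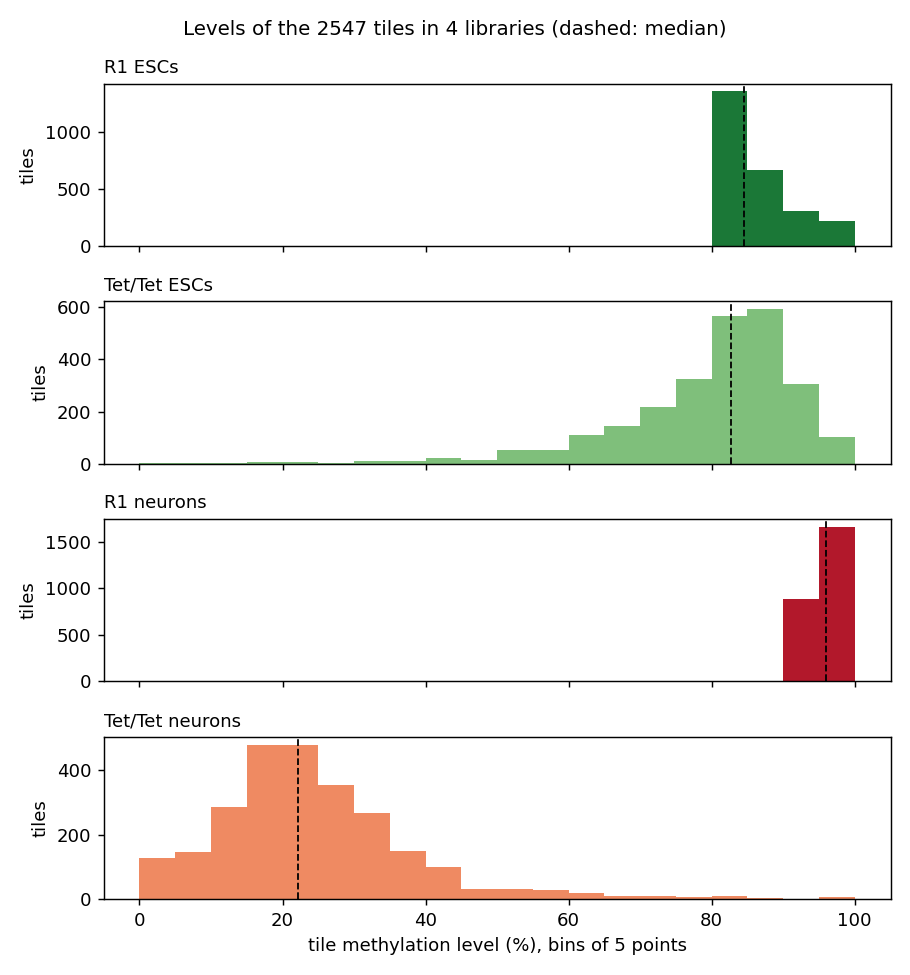
Number of tiles (y axis, linear, one scale per panel) by methylation level in percent (x axis, bins of 5 points) in each of the 4 libraries, with the median as a dashed line. The R1 panels start at 80% and 90% because the choice sets those limits, the Tet/Tet ESC tiles centre on 82.7% and the Tet/Tet neuron tiles on 22.2%.

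Single sites showed the same contrast. Of the 17368 sites, 69.4% (R1) and 62.5% (Tet/Tet) were above 80% in ESCs, and 96.5% (R1) and 4.09% (Tet/Tet) in neurons. In Tet/Tet neurons 46.0% of the sites were below 20%, 49.9% lay between 20% and 80%, and 16.1% were listed at 0. Sites of the same tile resembled each other in the Tet/Tet libraries. In the 298 tiles with at least 10 sites, the mean of every other site correlated with the mean of the sites between with r = 0.73 (rho = 0.61) in Tet/Tet neurons and r = 0.55 (rho = 0.47) in Tet/Tet ESCs, across tiles. The 2 sets of sites come from the same library and often the same fragments. In R1 ESCs, where the choice leaves a narrow range, r was 0.10.

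In ESCs, Tet/Tet cells kept the level of R1 within 10 points at 1752 tiles (68.8%), a smaller share than the 77.1% of all eligible tiles and the 74.2% of tiles at 60 to 80% in R1 ESCs and 90% or above in R1 neurons. Tet/Tet ESCs reached 80% at 1565 tiles (61.4%), against 4.83% of all eligible tiles and 14.4% of the 60 to 80% set. At 725 tiles (28.5%) they were lower than R1 by 10 points or more, against 7.53% of all eligible tiles, and at 70 tiles (2.75%) they were higher by 10 points or more, against 15.4% of all eligible tiles. The mean difference, Tet/Tet minus R1, was -6.43 points and the median -2.41 points. Since a tile entered only with a high R1 ESC value, this difference and the shares lower and higher carry the choice. The tiles just inside and just outside the limits had similar Tet/Tet levels. At 80 to 81% in R1 ESCs, 431 tiles averaged 76.0% (ESCs) and 22.2% (neurons) in the Tet/Tet libraries, and at 79 to 80%, 308 tiles averaged 77.0% and 23.2%. At 90 to 91% in R1 neurons, 113 tiles averaged 78.2% and 20.4%, and at 89 to 90%, 52 tiles averaged 80.3% and 22.9%.

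The ESC difference was concentrated in tiles with few sites and in tiles away from the fragments that RRBS enriches. In tiles with 5 shared sites, R1 ESCs averaged 86.9% and Tet/Tet ESCs 77.1%, and 39.8% of these 993 tiles were lower by 10 points or more. In the 40 tiles with 15 or more sites the levels were 83.8% and 84.0%, and 1 tile was lower by that much. Where all sites lay in predicted MspI fragments of 40 to 220 bases (552 tiles), the levels were 84.6% and 83.7%, and 7.79% of the tiles were lower. Where no site lay in one (1011 tiles), they were 87.6% and 75.7%, and 47.9% were lower. The way tiles were chosen also moved the direction. With tiles chosen on every other shared site and measured on the sites between, 508 tiles averaged 78.9% (R1) and 80.6% (Tet/Tet) in ESCs. The choice needed 5 sites among those used to choose, so tiles with only 5 shared sites could not enter. Under the main choice, tiles with at least 10 shared sites already had a difference of only -0.486 points. The number of sites and the way of choosing were not separated. With tiles chosen on Tet/Tet ESCs in place of R1 ESCs, 3482 tiles averaged 76.1% and 85.7%. The 1565 tiles found by both choices were 61.4% of the tiles described here and 44.9% of those chosen on Tet/Tet ESCs.

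**Figure D2:**
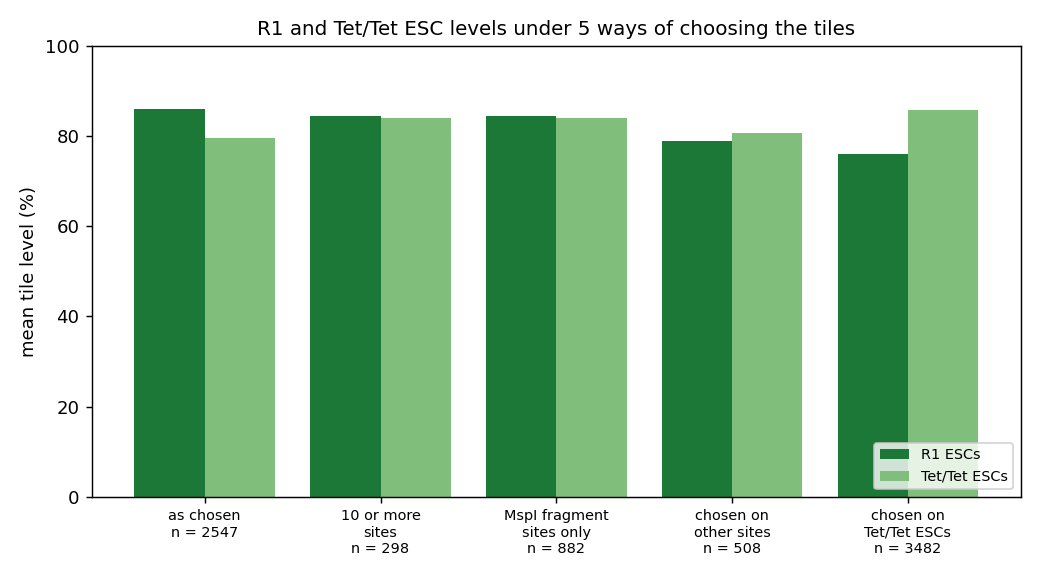
Mean tile level in percent (y axis, from 0) in R1 ESCs (dark bars) and Tet/Tet ESCs (light bars) under 5 ways of choosing the tiles, with the number of tiles below each pair; there are no error bars because each condition is 1 library. R1 is the higher bar as chosen (86.0% against 79.6%), nearly level with 10 or more sites or MspI fragment sites only, and the lower bar in both remaining choices.

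In neurons the difference was far larger than any of these shifts. Tet/Tet neurons were lower than R1 neurons by 10 points or more at 2536 of 2547 tiles (99.6%), against 79.6% of all eligible tiles, many of which were too low in R1 neurons to differ by so much. Among tiles that also reached 90% in R1 neurons, the share was 99.98% both at 60 to 80% and under 40% in R1 ESCs, so this was not particular to the tiles described here. They were lower by 50 points or more at 2400 tiles (94.2%), against 68.9% of all eligible tiles and against 98.6% and 99.1% of those 2 sets. The mean difference was -71.5 points and the median -73.0. Measured on sites that the choice had not used, in the 508 tiles chosen on every other site, the levels were 93.7% (R1) and 25.3% (Tet/Tet) in neurons. At 5 tiles (0.196%) Tet/Tet neurons were not below R1 neurons, against 5.34% of all eligible tiles. A total of 274 tiles (10.8%) were under 10%, against 38.3% of all eligible tiles, and 62 of them (2.43%) were at 0, against 1.09%. Between 20% and 50% lay 1378 tiles (54.1%), against 23.3%. At 127 tiles (4.99%) the level was 50% or above, against 0.591% of all eligible tiles, and at 21 tiles (0.824%) it was 80% or above, against 0.0561%. In the 60 to 80% set 0.00916% were not below R1 neurons, 6.64% were under 10% and 0.513% were at 0. That set had 46.2% between 20% and 50%, 0.852% at 50% or above and 0.0641% at 80% or above. Tiles under 10% were thus more frequent here than in the 60 to 80% set, though less frequent than among all eligible tiles. No site lay in a predicted MspI fragment in 39.7% of the tiles here and in 20.7% of the 60 to 80% set. The part of this in the share under 10% was not tested.

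Among tiles at 90% or above in R1 neurons, the Tet/Tet neuron level was higher where R1 ESCs were more methylated. It averaged 16.7% ± 8.0 (SD over tiles) in 3936 tiles under 20% in R1 ESCs, 18.4% ± 7.95 at 20 to 40%, 18.7% ± 7.74 at 40 to 60% and 20.5% ± 8.56 in 10918 tiles at 60 to 80%. The tiles described here averaged 24.3% ± 12.6 at 80 to 90% (2026 tiles) and 24.1% ± 18.4 at 90 to 100% (521 tiles), with medians of 22.6% and 20.4%. The share at 50% or above was 0.584% in the lowest of these classes, 0.852% at 60 to 80%, 4.10% at 80 to 90% and 8.45% at 90 to 100%. These means differ by less than the SD over tiles. The soft-masked share of bases was 21.6% in the lowest class, 51.9% at 80 to 90% and 47.1% at 90 to 100%. On average 61.1% of sites lay in predicted MspI fragments at 60 to 80%, 48.2% at 80 to 90% and 21.5% at 90 to 100%. Shared sites per tile averaged 7.06, 7.04 and 5.98 in these classes. Where all sites lay in such fragments, the share at 50% or above was 0.480%, 1.41% and 7.27% (55 tiles in the last). Within tiles without a soft-masked site, the Tet/Tet neuron mean was 19.95% at 60 to 80%, 21.5% at 80 to 90% and 19.8% at 90 to 100%. Within tiles whose sites were all soft-masked it was 23.2%, 29.1% and 32.0%.

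**Figure D3:**
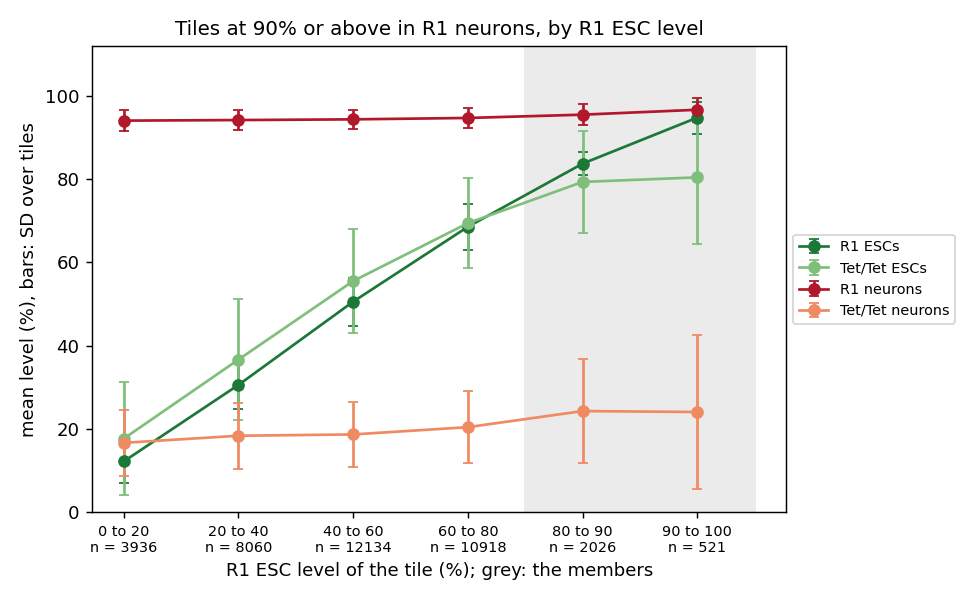
Mean methylation level in percent (y axis) of tiles at 90% or above in R1 neurons, by R1 ESC level in classes of 20 or 10 points (x axis, number of tiles below each class), with bars for the SD over tiles and grey for the tiles described here. Tet/Tet ESCs follow R1 ESCs and lie below them in both grey classes, while Tet/Tet neurons stay between 16.7% and 24.3% across all classes.

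The tiles lay mostly away from genes and gene starts. Each tile was placed by its middle base. A tile counted as intronic or outside genes can therefore still hold exon sequence or touch a gene. Of the 2547, 1373 (53.9%) lay outside annotated genes, 903 (35.5%) in introns, 169 (6.64%) in exons and 102 (4.0%) no more than 1 kb from the start of a gene of any kind. Among all other eligible tiles the shares were 28.8%, 34.7%, 12% and 24.5%. The median distance to the start of a protein-coding gene was 53.5 kb, against 17.8 kb for all eligible tiles and 46.5 kb for tiles at 60 to 80% in R1 ESCs and 90% or above in R1 neurons. That last set, chosen with the same limit in R1 neurons and a lower range in R1 ESCs, had 39.8% outside genes and 4.70% at starts. The tiles were poorer in CpG than other eligible tiles and richer than the 60 to 80% set, with 21.5 CpGs per tile against 29.7 and 18.2. They had a GC content of 47.6% against 51.7% in other eligible tiles and 48.2% in the 60 to 80% set, and 6.82 shared sites against 14.2 and 7.06.

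Repeats made up much of them. Soft-masked bases were 50.9% of the tiles against 23.8% of all other eligible tiles and 32.2% of the 60 to 80% set. All sites lay in soft-masked sequence in 767 tiles (30.1%), against 9.06% of other tiles and 13.5% of the 60 to 80% set. A shared site lay in a CpG island in 677 tiles (26.6%), against 36.3% and 13.7%. Islands were called on the sequence with repeats included, and 73.5% of the bases of these 677 tiles were soft-masked. No site lay in a predicted MspI fragment in 1011 tiles (39.7%), against 16.1% of other tiles and 20.7% of the 60 to 80% set. The sequence classes of the tiles and the R1 ESC choice were not separated by a test.

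**Figure D4:**
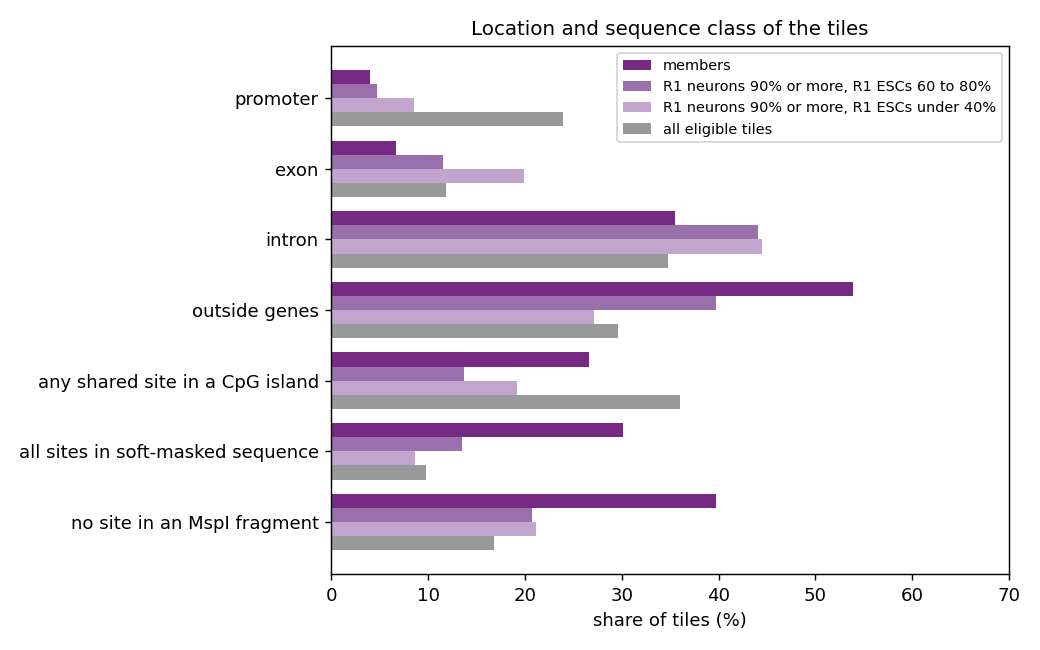
Share of tiles in percent (x axis, from 0) in each location and sequence class (y axis), for the 2547 tiles (darkest bars), 2 comparison sets that also reach 90% in R1 neurons, and all eligible tiles (grey). The darkest bar is the longest of the 4 outside genes (53.9%), for sites that are all in soft-masked sequence (30.1%) and for tiles without a site in an MspI fragment (39.7%), and the shortest at promoters (4.0%).

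In splits added after the data were seen, both repeats and CpG density went with the level in Tet/Tet neurons. Tiles whose sites were all soft-masked averaged 29.7%, those with some such sites 22.8% and those with none 21.1%, and 92, 17 and 18 of them were at 50% or above. The Tet/Tet ESC levels of the same classes were 83.3%, 80.4% and 75.6%. By CpG count, Tet/Tet neurons averaged 21.5% ± 11.97 (SD over 639 tiles) with fewer than 15 CpGs per tile and 31.6% ± 18.99 (248 tiles) with 35 or more, and the share at 50% or above was 2.66% and 13.7%. The soft-masked share was 40.6% and 83.4% of bases in these classes. Where at most 50% of a tile was soft-masked, 158 tiles with 25 or more CpGs averaged 23.0% and 1165 with fewer averaged 21.5%. Where more than 50% was soft-masked, 620 tiles with 25 or more CpGs averaged 30.4% and 604 with fewer averaged 23.7%. The same split in the 60 to 80% set gave 24.6% (767 tiles) and 20.8% (1933 tiles). Across the 2547 tiles, which share their 4 libraries, the Tet/Tet neuron level correlated weakly with CpG count (r = 0.24, rho = 0.22) and with the soft-masked share (r = 0.22, rho = 0.21), and hardly with GC content (r = -0.05).

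The motif TGCCGC, searched on both strands, was present in 660 tiles (25.9%). It was present in 23.8% of all eligible tiles and in 15.5% of the 60 to 80% set. The motif contains a CpG, and tiles that hold it are richer in CpG. The tiles described here had fewer CpGs on average than all eligible tiles and more than the 60 to 80% set. Tiles with the motif averaged 28.8% in Tet/Tet neurons and 73 of them were at 50% or above, against 22.7% and 54 of the 1887 tiles without it. Among tiles more than 50% soft-masked, 453 with the motif averaged 31.4% and 29.9 CpGs, and 771 without it averaged 24.6% and 22.7 CpGs. Among the less soft-masked tiles the levels were 23.3% (207 tiles) and 21.4% (1116 tiles). In the 60 to 80% set the more soft-masked tiles averaged 23.8% with the motif and 21.4% without. A match of these letters is not a measured binding site, and the part of CpG density in these values was not tested.

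The 127 tiles at 50% or above in Tet/Tet neurons averaged 64.8% there, against 88.02% (R1) and 84.6% (Tet/Tet) in ESCs and 96.6% in R1 neurons. Their sites were all soft-masked in 72.4% of cases, 72.6% of their bases were soft-masked, and they held 28.0 CpGs per tile with an observed to expected ratio of 0.51. The 274 tiles under 10% averaged 73.5% in Tet/Tet ESCs, were 39.3% soft-masked, and held 18.9 CpGs per tile with a ratio of 0.33. On average only 15.6% of the sites of these 274 tiles lay in predicted MspI fragments. The average was 29.3% in the 127 tiles and 42.7% over all 2547. Shared sites per tile averaged 5.78, 6.89 and 6.82. Of the 127 tiles, 57.5% lay outside genes and 2.36% in exons. Only 13 of them had 10 or more shared sites, and 39 had the minimum of 5.

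Of the tiles with at least 10 shared sites, the 6 highest in Tet/Tet neurons ranged from 60.2% to 71.7%. The highest was chr15:15788001-15789000, in an intron of 4930557F08Rik, with 80.4% (R1) and 79.6% (Tet/Tet) in ESCs and 96.4% (R1) and 71.7% (Tet/Tet) in neurons. It is the first sequence printed, and its 10 sites lay within 133 bases. Their Tet/Tet neuron values were 66.7% at 7 sites, 100% at 2 and 50.0% at 1. So few distinct values can come from few reads, and the depth there is unknown. The next were chr2:51886001-51887000 (69.0%, outside genes), chr11:57449001-57450000 (64.6%, at the start of Gm12242), chr17:36628001-36629000 (62.6%, outside genes), chr11:31454001-31455000 (61.6%, outside genes) and chr4:5609001-5610000 (60.2%, outside genes). In Tet/Tet neurons the SD over the sites of a tile ran from 15.8 points in the first to 47.7 in the chr4 tile, which had no site in an MspI fragment. It was 34.6 in the chr17 tile and 28.4 in the chr2 tile. The depth is unknown in these tiles too. All sites were soft-masked in 5 of the 6, the exception being the tile at Gm12242. In 4 of the 6 all sites lay in a CpG island.

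Repeat sequence was also found among the least methylated tiles in Tet/Tet neurons. The 6 lowest in Tet/Tet neurons with at least 10 sites ranged from 4.72% to 9.07%, and all lay outside genes. The lowest, chr19:4957001-4958000, had 85.2% (R1) and 88.8% (Tet/Tet) in ESCs and 98.4% (R1) and 4.72% (Tet/Tet) in neurons. Its window, the third sequence, holds 5 of its 10 sites, and 89.6% of the tile was soft-masked. Of the others, chrY:4682001-4683000 (4.99%) and chr11:120321001-120322000 (5.77%) were also soft-masked at every site, while chrY:4801001-4802000 (8.17%) and chr12:111123001-111124000 (9.01%) were so at none, and chr16:34591001-34592000 (9.07%) at 83.3% of its sites.

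**Figure D5:**
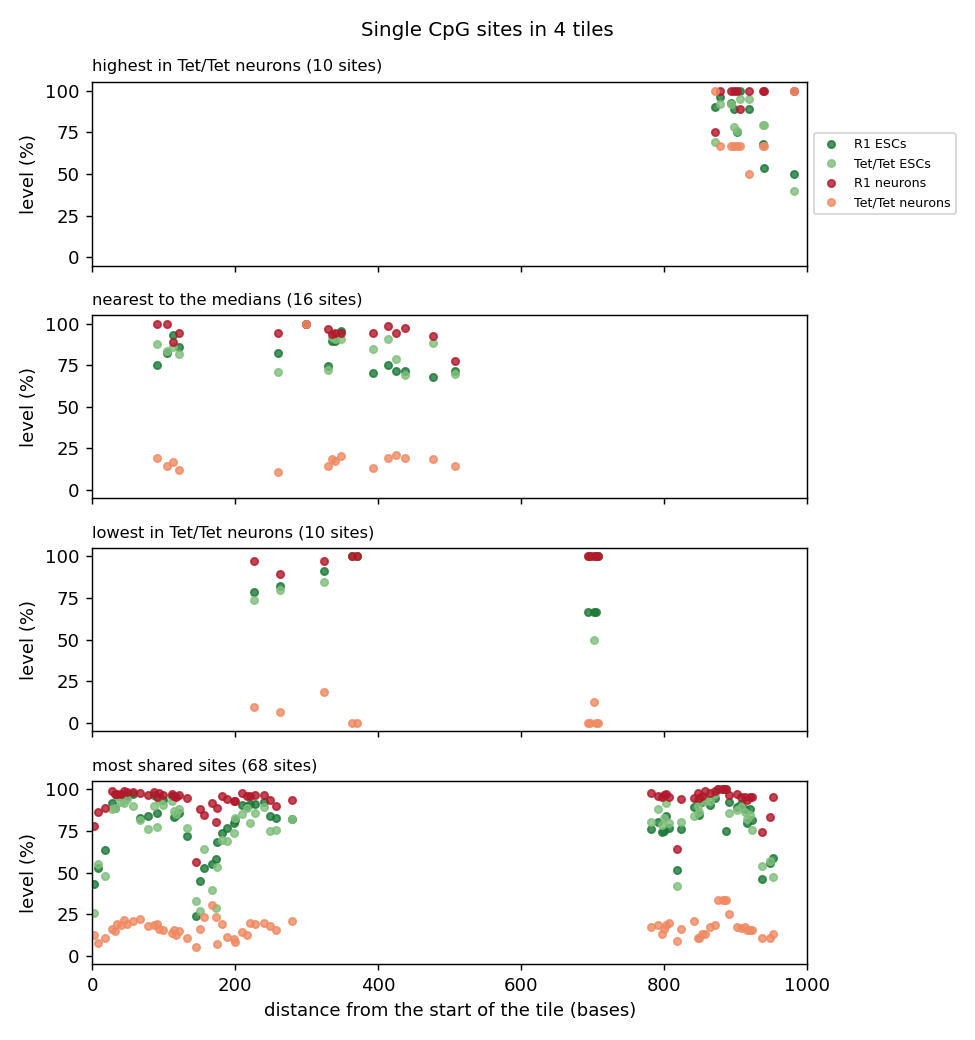
Methylation level in percent (y axis) of every shared CpG site in 4 tiles by its distance from the tile's start in bases (x axis), 1 point per site and library. In the highest tile the Tet/Tet neuron points lie at 50.0% or above, in the tile nearest to the medians all but 1 lie between 10.8% and 21.1%, in the lowest tile they lie at 18.3% or below, and in the tile with the most sites between 5.13% and 33.3%.

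The tile nearest to the medians, chr4:80410001-80411000, lay outside genes and had 16 shared sites. Its levels were 80.9% (R1) and 83.5% (Tet/Tet) in ESCs and 94.5% (R1) and 21.9% (Tet/Tet) in neurons. At 1 of its sites all 4 libraries stood at 100%. The tile with the most shared sites (68) lay in Asmt, which encodes the last enzyme of melatonin synthesis, near the end of the X chromosome. It had 80.6% (R1) and 78.3% (Tet/Tet) in ESCs and 93.7% (R1) and 17.0% (Tet/Tet) in neurons. A group of its sites about 150 bases into the tile was less methylated than most others in both ESC libraries. The site lowest in R1 ESCs had 23.9% (R1) and 33.1% (Tet/Tet) in ESCs. In neurons that site had 56.4% (R1) and 5.13% (Tet/Tet), the lowest of the tile in both libraries. Other sites low in ESCs lay near the start and the end of the tile.

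Of tiles with at least 10 sites, the 6 furthest below R1 in Tet/Tet ESCs differed by -29.6 to -18.2 points. The first, chr11:79863001-79864000 in an intron of 9130204K15Rik, had 84.7% (R1) and 55.1% (Tet/Tet) in ESCs and 90.3% (R1) and 18.2% (Tet/Tet) in neurons. Its difference came from a few sites: R1 and Tet/Tet ESCs stood at 84.9% and 83.8% at the first site and at 66.2% and 66.4% at the second, but at 100% and 0 at each of the last 2. Few reads can give values of 100% and 0, and the depth at these sites is unknown. An exonic tile of Prmt5, which encodes a protein arginine methyltransferase, had 80.9% and 54.0% in the ESC libraries and 96.4% and 26.0% in the neurons. An exonic tile of Clcn2, a chloride channel gene, had 80.1% and 60.2%, and one of Hectd4 had 100% and 81.8%. The Hectd4 tile had 11 sites, none in an MspI fragment. All stood at 100% in R1 ESCs, and their SD in Tet/Tet ESCs was 33.7 points. Few reads can give such values, and the depth there is unknown. The 6 tiles furthest above R1 differed by 9.14 to 13.7 points. They included an intronic tile of Ntrk2, the receptor for brain-derived neurotrophic factor, at chr13:59121001-59122000, with 80.1% (R1) and 91.7% (Tet/Tet) in ESCs and 97.8% (R1) and 21.5% (Tet/Tet) in neurons. All 12 of its sites lay in MspI fragments.

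By location, Tet/Tet ESCs averaged 73.8% in the 169 exonic tiles, 77.4% in introns, 81.7% outside genes and 79.9% at starts, and 46.2% of exonic tiles were lower than R1 by 10 points or more against 21.6% of those outside genes. In Tet/Tet neurons the same classes averaged 22.0%, 24.0%, 24.8% and 23.7%. The shares among eligible tiles were 4.03% on X (108 tiles) and 11.1% on Y (32 tiles), and on the autosomes they ran from 1.89% on chromosome 10, of which only 159 tiles were eligible, to 4.4% on chromosome 13. Tet/Tet neurons averaged 24.3% in the autosomal tiles, 24.4% on X and 20.6% on Y. Most of the tiles stood alone, with 52 runs of 2 adjacent tiles, 6 longer runs and a longest run of 4 tiles. Of 512 neighbouring positions that were eligible, where a tile between 2 of them counts once for each, 130 (25.4%) met the limits too. The other neighbours were 377 different tiles, which averaged 59.5% (R1) and 63.5% (Tet/Tet) in ESCs and 89.5% (R1) and 19.7% (Tet/Tet) in neurons.

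At protein-coding genes, such tiles were rare at starts. Of 11238 genes with an eligible tile within 1 kb of the start, 16 (0.142%) had one of these tiles there. Of 12824 genes with an eligible tile anywhere in the gene, 843 (6.57%) had at least 1 and 113 had 2 or more. No start lay in one of the tiles with 10 or more sites. In tiles with fewer sites, the starts of 9 genes did, which are named here after their values were seen. They include Pck1, which encodes an enzyme of gluconeogenesis, Fabp2, an intestinal fatty acid binding protein, Clca1, a secreted protein of mucous cells, Actbl2, an actin-like protein, Hmgb4, a testis HMG box protein, and Nmur1, a neuromedin U receptor whose tile also holds the start of Tex44. At Pck1 the levels were 94.2% (R1) and 83.3% (Tet/Tet) in ESCs and 96.9% (R1) and 30.3% (Tet/Tet) in neurons. At Clca1 they were 100%, 80%, 96% and 2.86% over 5 sites. At 4930544G11Rik they were 80.7%, 87.7%, 99.3% and 56.1%, the highest Tet/Tet neuron level of the 9. Those of the genes not given here lay between 5.00% and 28.6%.

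The 8 genes with the most such tiles were 69.9 to 379 kb long, and the tiles were a minority of their eligible tiles in most of them. Desi2, a deSUMOylating peptidase gene, had 4 of its 5 eligible tiles, which averaged 88.9% (R1) and 91.1% (Tet/Tet) in ESCs and 95.8% (R1) and 18% (Tet/Tet) in neurons. Gm4756 had all 3 of its eligible tiles, at 86.0%, 87.95%, 95.5% and 18.4%. In Ntrk2 4 of 22 tiles averaged 84.2% (ESCs) and 19.2% (neurons) in the Tet/Tet libraries. In Ttn, which encodes the muscle protein titin, 4 of 28 averaged 85.4% and 24.2%, and in Gabbr2, which encodes a GABA-B receptor subunit, 4 of 38 averaged 78.0% and 26.0%. Lower Tet/Tet ESC levels were seen in Ptpn13, a tyrosine phosphatase gene (4 of 17 tiles, 67.5%), Ttc7 (4 of 24, 63.0%) and Fry (4 of 32, 72.5%), whose R1 ESC levels were 82.5%, 81.9% and 85.6%. Their Tet/Tet neuron levels were 24.1%, 21.1% and 23.3%, so that the 8 genes ranged from 18% to 26.0% there.

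Gene groups were read against the 6.57% of genes and 3.17% of tiles over all. A gene with more eligible tiles has more chances to hold one of these tiles. The share of genes in a list therefore depends on how many eligible tiles its genes have. Among pluripotency genes 0 of 14 genes and 0 of 71 eligible tiles had such a tile, and among neuronal genes 0 of 25 genes and 0 of 228 tiles. Germline genes had 4 of 28 genes (4 of 72 tiles, 5.56%) and imprinted genes 3 of 22 (6 of 126 tiles, 4.76%). Calcium channel genes had 3 of 16 genes but only 3 of 188 tiles (1.60%). Chromatin regulators had 2 of 26 genes and 2 of 311 tiles (0.643%). Collagen genes, which encode fibrous matrix proteins, had 9 of 29 genes and 14 of 200 tiles (7.0%). The symbol rule for ribosomal proteins found 1 of 74 genes, and this was Rps6kc1, a kinase-like gene and not a ribosomal protein. No gene of these lists had one of the tiles at its start as defined for the gene.

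Among germline genes, which act in sperm and egg precursors, the piRNA pathway gene Piwil2 had a tile that also overlaps Gm22725, with 86.7% (R1) and 38.7% (Tet/Tet) in ESCs and 100% (R1) and 16.9% (Tet/Tet) in neurons. Mov10l1, a helicase gene of the same pathway, had 83.3%, 67.2%, 91.7% and 34.3%. Tdrd6 had 85.7%, 55.0%, 100% and 20.1%, and Tuba3b 80.7%, 86.1%, 93.4% and 25.2%. The first 3 had no site in an MspI fragment. Among imprinted genes, 2 intronic tiles of Igf2r, which encodes a receptor that clears IGF2, had 26.6% and 53.3% in Tet/Tet neurons. Both also held annotated exon sequence. At Rtl1, a retrotransposon-derived gene, 2 adjacent tiles had 65.7% and 89.6% in Tet/Tet ESCs and 18.95% and 23.4% in Tet/Tet neurons. The tiles of Trappc9 had 18.6% and 30.0% there. The collagen tiles lay between 0 and 26.0% in Tet/Tet neurons. In Col23a1, 3 tiles had 73.8%, 100% and 16.7% in Tet/Tet ESCs, the last 2 over 5 sites each.

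Genes of methylation enzymes held such tiles in 2 of 11 genes and in 3 of 58 eligible tiles (5.17%). In Dnmt3a a tile at chr12:3896001-3897000, intronic at its middle base but also holding exon sequence, had 88.9% (R1) and 68.9% (Tet/Tet) in ESCs. In neurons it had 97.7% (R1) and 60.2% (Tet/Tet), over 6 sites. An exonic tile at chr12:3912001-3913000 had 86.4%, 84.0%, 97.03% and 43.3% over 7 sites. The 13 other eligible tiles of Dnmt3a averaged 36.3%, 33.2%, 64.3% and 17.6%, with a highest Tet/Tet neuron level of 40%, so both tiles stood above the rest of the gene in that library. In Dnmt3b an intronic tile had 80%, 31.1%, 98.3% and 19.3% over 5 sites, none in an MspI fragment, and its 5 other eligible tiles averaged 44.4% (ESCs) and 13.1% (neurons) in the Tet/Tet libraries.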

How the data were processed

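RRBS was made from R1 and Tet/Tet ESCs and from neurons of both lines, 1 library each. Per the paper's methods and the submitters' processing notes, the authors trimmed reads with Trim Galore 0.6.4, mapped them to mm10 with Bismark 0.19.0, called CpGs with MethylDackel 0.3.0 and deposited, per site, the percent of reads that kept cytosine. The deposited percentages carry no read totals and were not normalised between libraries. No site could be weighted or filtered by depth, no interval was given, and a site with few reads counts as much as one with many.

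Sites listed in all 4 tables on chromosomes 1 to 19, X and Y were placed in tiles of 1000 bases. Genes were those of GENCODE M21, and the location of a tile was that of its middle base. CpG islands were called on the GRCm38.p6 sequence with repeats included (windows of 200 bases, GC of at least 50%, observed to expected CpG ratio above 0.6, joined within 100 bases, 64801 islands). Python 3.11.15, numpy 2.4.6, pandas 2.3.3, scipy 1.17.1 and matplotlib 3.10.9 were used. The calculations were tested on simulated data. Single tiles named were, among those with 10 or more shared sites, the 6 highest and 6 lowest in Tet/Tet neurons and the 6 furthest below and above R1 in Tet/Tet ESCs, with the tile nearest to the medians and the one with the most sites, and genes were the 8 with the most tiles. The rule for genes with a start in such a tile found none and was widened afterwards. The tiles and gene lists were chosen with earlier results of these data known. With 1 library per condition, values were compared without tests.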

Additional observations from a re-analysis of the deposited data

Results flagged for a closer look

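At 5 of the tiles with 10 or more sites, Tet/Tet cells were at least 10 points above R1 as ESCs and far below R1 as neurons. The neuronal change was lower than the ESC change by 94.0 points at chr3:22264001-22265000 (a difference of -94.01), by 87.9 points in Ntrk2 at chr13:59121001-59122000 (-87.85), by 82.2 points at chr19:9550001-9551000 (-82.18), by 68.3 points at chr15:14484001-14485000 (-68.31) and by 68.2 points at chr13:51076001-51077000 (-68.22). With 1 library per condition the difference was not tested. Over all 2547 tiles the same quantity had a mean of -65.0 and a median of -68.1 points, so the values at chr15:14484001-14485000 and chr13:51076001-51077000 were close to the median. Of the 70 tiles that were at least 10 points higher in Tet/Tet ESCs, 68 were at least 10 points lower in Tet/Tet neurons, which 99.6% of all these tiles were. The opposite directions were seen at 2.67% of the tiles and at 15.3% of all eligible tiles. A tile above 90% in R1 ESCs cannot rise by 10 points, so the choice itself limits the first of these shares.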

How the results depend on the processing

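No paired analysis was possible because each condition had 1 library. Of 110 comparisons with an alternative, 58 stayed within the limits set, 49 moved and 3 changed direction. The limits were 2 points for a mean and a factor of 1.5 for a count. For a share the limit was a 95% interval, which treats tiles of the same library as independent. The alternatives also share the libraries and many of the tiles. These counts are therefore a description and not a measure of robustness. Leaving out a library or a count of reads was not possible, and depth per site is unknown, so values that rest on 5 sites are the least certain. The Tet/Tet neuron level lay between 20.8% and 26.6% in all alternatives. The ESC difference depended on how the tiles were chosen, and the cause was not tested.

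The ESC difference of -6.43 points became 1.76 with tiles chosen on every other site, 9.62 with tiles chosen on Tet/Tet ESCs and 2.24 with MspI sites chosen on every other one, an alternative chosen after seeing the data. With at least 10 sites there were 298 tiles, with Tet/Tet ESCs at 83.9%, Tet/Tet neurons at 26.6%, differences of -0.486 (ESCs) and -68.6 points (neurons), 7.05% lower and 1.68% higher by 10 points in ESCs, 28.2% in gene bodies and 67.4% outside genes. With limits of 90% and 95% there were 397 tiles, an ESC difference of -14.6, 49.1% lower and 1.01% higher, 9.57% at 50% or above in Tet/Tet neurons, 6.30% in promoters, 49.4% in gene bodies and 44.3% outside genes. With the median over sites there were 3878 tiles, Tet/Tet neurons at 20.8%, differences of -9.71 and -76.5, and 32.8% lower. With MspI fragment sites there were 882 tiles, Tet/Tet ESCs at 84.0%, an ESC difference of -0.436, 6.92% lower and 1.47% higher, 2.49% at 50% or above, 2.49% in promoters, 29.0% in gene bodies and 68.5% outside genes. On every other site there were 508 tiles, a neuronal difference of -68.4, 7.87% lower and 12.8% higher, 32.5% in gene bodies and 63.0% outside genes. Chosen on Tet/Tet ESCs, their level was 85.7%, 2.33% were lower and 35.2% higher, 3.96% were at 50% or above and 39.8% in gene bodies. The added alternative gave 166 tiles, Tet/Tet ESCs at 82.2%, 3.01% lower and 8.43% higher, 3.01% at 50% or above, 28.3% in gene bodies and 66.9% outside genes.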
